A study of Arabidopsis thaliana with 12 samples.

Results

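Dark-kept seedlings of the Arabidopsis thaliana line flu1-5 ex1 were compared with dark-kept seedlings of flu1-1 ex1, by RNA-seq of whole seedlings. The comparison takes the 6 libraries, of 12 in the series, that were made after 4 h of darkness and before light returned, 3 of flu1-5 ex1 and 3 of flu1-1 ex1. The genes compared are those for which the deposited tables of both lines list the same transcript, 26684 of 27655. Both lines carry ex1, a mutation in EXECUTER1 (EX1), and they differ in the label of their flu allele, flu1-5 or flu1-1. Seedlings were 6 days old and had grown in continuous light. The other 6 libraries, 3 of each line, came from seedlings given 1 h of light after the same dark period. No library is of a line without a flu mutation or without ex1, and nothing in the labels says whether the lines differ elsewhere in the genome, so that the flu allele and any further difference between the lines cannot be told apart. Each replicate pooled about 100 seedlings, per the file headers. Nothing says that replicates were grown apart, and p-values then measure only how these samples vary, possibly for technical reasons.

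FLU is a chloroplast membrane protein that restrains the first committed steps of chlorophyll and heme synthesis in the dark, by binding glutamyl-tRNA reductase, the enzyme that HEMA1 encodes. Where that brake is lost, seedlings in darkness accumulate protochlorophyllide, a precursor of chlorophyll, which in light passes energy to oxygen and makes singlet oxygen. EXECUTER1 and EXECUTER2 are chloroplast proteins known for relaying the singlet oxygen signal to the nucleus. The series' title concerns a suppressor screen and the strength of the flu allele, and dark libraries show the state of the lines before re-illumination.

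Levels are given in TPM, a measure of relative abundance that corrects for transcript length. The deposited values summed to 932268 to 932531 TPM in flu1-5 ex1 dark libraries and 934807 to 935223 TPM in flu1-1 ex1 dark libraries. TPM carries no read number, and the sequencing depth behind these values is therefore unknown. Differences are flu1-5 ex1 minus flu1-1 ex1 in log2(TPM + 1), a scale on which changes of weakly expressed genes come out too small, and were tested with limma over all genes that averaged 1 TPM or more. A gene is called at a Benjamini-Hochberg adjusted p under 0.05. Between 17347 and 17502 genes reached 1 TPM in each dark library. Pearson r across genes was 0.994 to 0.995 between libraries of 1 line and 0.986 to 0.987 between lines, where genes are not independent replicates. Principal component 1, with 55.3% of the variance, separated the lines. Component 2 had 12.2%, and replicate 3 of flu1-1 ex1 stood apart on it, at -15.3 against 6.91 and 8.62 for the other libraries of that line. In flu1-5 ex1 replicates 1, 2 and 3 had 6.03, 0.278 and -6.55, so replicate 3 was lowest in both lines. Chloroplast genome identifiers took 1.86% to 2.16% of TPM in the flu1-5 ex1 libraries, and 2.07%, 2.03% and 2.89% in flu1-1 ex1 replicates 1, 2 and 3. The groups were taken from titles and descriptions, because the genotype field gives flu1-1 for the flu1-5 ex1 libraries too.

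FLU itself (AT3G14110) had 13.2, 13.8 and 15.5 TPM in the flu1-5 ex1 libraries, against 197, 184 and 189.6 TPM in the flu1-1 ex1 libraries. All 3 flu1-5 ex1 libraries were far below all 3 of flu1-1 ex1, as the descriptions group them. The difference was -3.66 (SE 0.057, limma adjusted p = 5.82e-09), with a level 13.4 times higher in flu1-1 ex1. EX1 (AT4G33630), whose mutation both lines share, had 45.3, 44.8 and 45.8 TPM in flu1-5 ex1 and 37.1, 42.2 and 40.9 TPM in flu1-1 ex1, a difference of 0.18 (adjusted p = 0.0408) that lost its call in most alternatives. EX2 had 71.5 ± 1.33 TPM in flu1-5 ex1 and 69.3 ± 2.75 TPM in flu1-1 ex1 (SD, n = 3 each, as throughout) and was not called (adjusted p = 0.47). These values are of transcripts and carry no information on protein.

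Of 17471 genes tested, 3233 (18.5%) were called. More were higher than lower in flu1-5 ex1: 2246 (12.9%) were higher and 987 (5.65%) lower. Most differences were small. Of the called genes 2483, or 76.8%, differed by less than 0.5 on the log2 scale, and the median size was 0.28. At least 2-fold differences were found for 161 genes higher (0.922% of those tested) and 27 lower (0.155%). Some of the higher genes, among them ERF105, MYC2 and LOX4, passed the filter only through flu1-5 ex1. Some of the lower genes, among them AT3G01345 and MRD1, passed it only through flu1-1 ex1. Such genes are no support for these counts. The balance between directions depended on scaling: the median of all genes was 0.04 under TPM and -0.01 after quantile normalization, a shift of -0.05, and with quantile normalization 1594 genes were higher and 1435 lower, so that the higher share of calls was 52.6% in place of 69.5%.

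Among called genes at or above the median level, the 12 largest rises in flu1-5 ex1 were those of a mitochondrial carrier, 3 zinc-finger proteins, a WRKY factor, a deadenylase subunit, a calcium-binding protein, a cell wall enzyme, 2 cytochromes P450, a glycine-rich protein and a heavy metal family protein. DIC2 (AT4G24570), a mitochondrial dicarboxylate carrier, had the largest rise among them. It had 61.8, 55.1 and 56.3 TPM in flu1-5 ex1, against 7.25, 7.41 and 8.55 TPM in flu1-1 ex1, so that the groups were far apart and the difference was 2.75 (SE 0.070, adjusted p = 6.25e-08). ZAT10 (AT1G27730), a zinc-finger transcription factor of salt and oxidative stress, had 52.7, 48.8 and 51.6 TPM in flu1-5 ex1, against 9.7, 10.9 and 10.7 TPM in flu1-1 ex1. SZF1 (AT3G55980), a salt-inducible CCCH zinc-finger protein, had 99.1, 95.9 and 98.8 TPM in flu1-5 ex1, against 25.7, 26 and 26.9 TPM in flu1-1 ex1. For both genes every flu1-5 ex1 library was above every flu1-1 ex1 library, with differences of 2.19 and 1.86. WRKY40 (AT1G80840), a stress and immunity transcription factor, had 47.3, 45.4 and 47 TPM in flu1-5 ex1, against 13.9, 15.9 and 13.2 TPM in flu1-1 ex1.

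The other members of the 12 largest rises, picked for large differences in these same libraries, had the following levels. The glycine-rich protein gene AT1G07135 averaged 107 ± 6.88 TPM in flu1-5 ex1 and 24.8 ± 0.289 TPM in flu1-1 ex1. CAF1a, a subunit of the complex that shortens mRNA tails, averaged 43.8 ± 0.462 TPM in flu1-5 ex1 and 11.8 ± 0.264 TPM in flu1-1 ex1. The calcium-binding EF-hand gene AT4G27280 averaged 53.8 ± 2 TPM in flu1-5 ex1 and 15.6 ± 0.521 TPM in flu1-1 ex1. XTH18, which remodels cell wall xyloglucan, averaged 90.8 ± 2.03 TPM in flu1-5 ex1 and 26.3 ± 0.44 TPM in flu1-1 ex1. Of the cytochromes P450, CYP81D8 averaged 82.7 ± 3.03 TPM in flu1-5 ex1 and 23.9 ± 0.533 TPM in flu1-1 ex1, and CYP72A11 averaged 60.7 ± 1.7 TPM in flu1-5 ex1 and 19.6 ± 0.494 TPM in flu1-1 ex1. CZF1, a relative of SZF1, and AT5G52750, a heavy metal transport and detoxification family gene, differed by 1.58 and 2.23. Adjusted p-values of these 12 genes lay between 2.17e-08 and 8.21e-07.

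**Figure D1:**
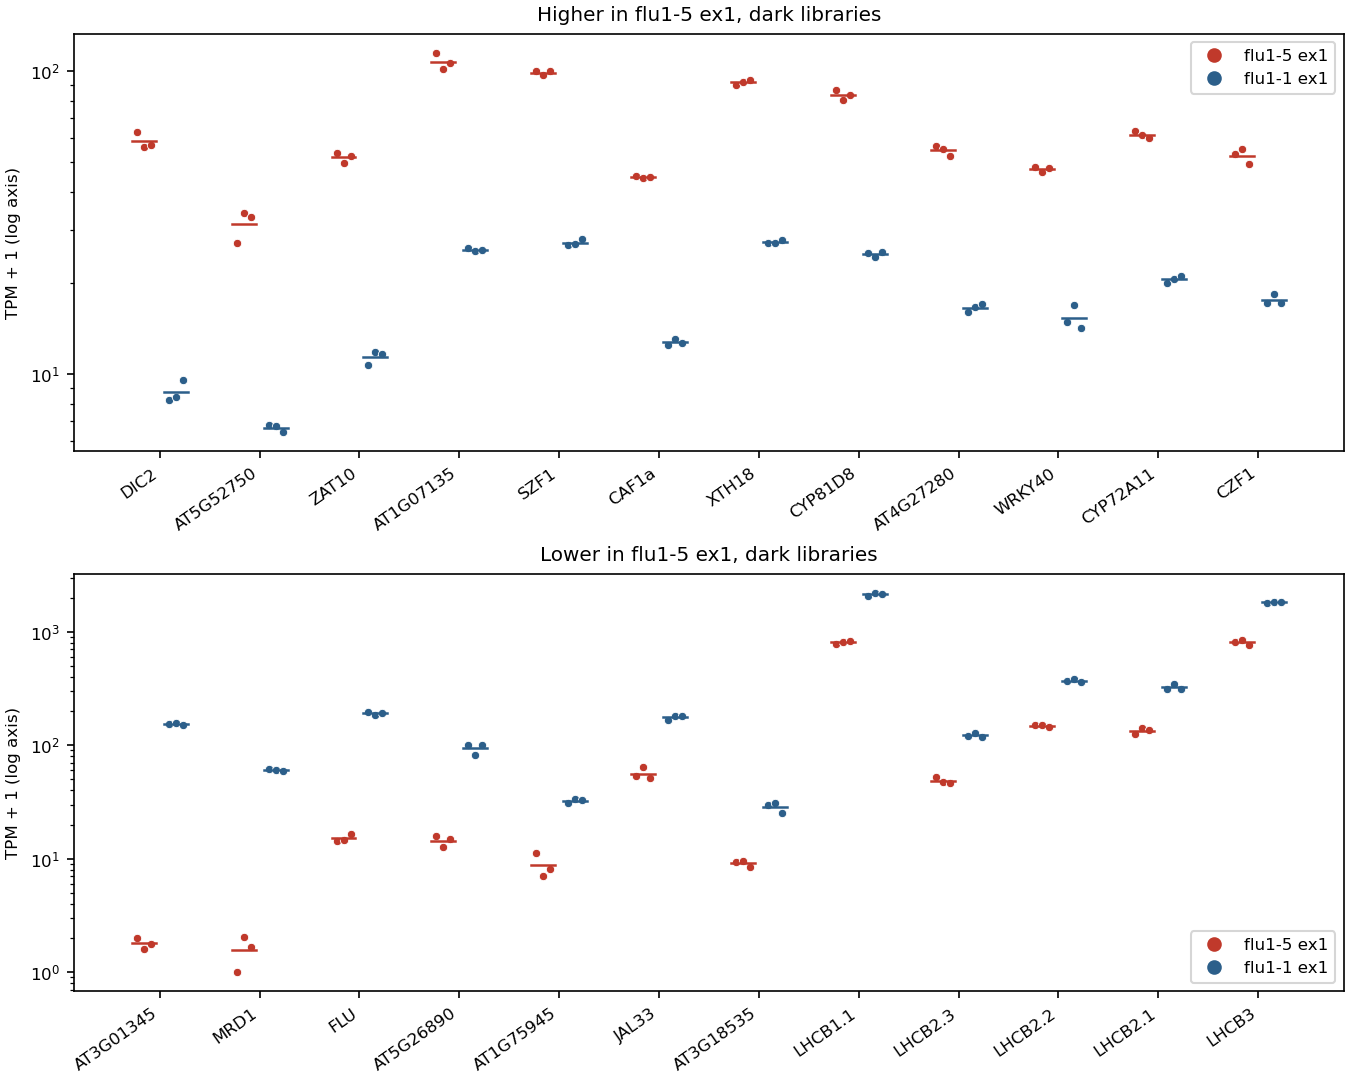
TPM + 1 on a log axis in each dark library for the 12 largest rises (upper panel) and the 12 largest falls (lower panel) among called genes at or above the median level, with flu1-5 ex1 in red on the left and flu1-1 ex1 in blue on the right of each pair, points for libraries and bars for means of 3. The 24 genes were picked for large differences in these libraries, so that the gap between the lines follows from the choice. FLU lies at 13.2 to 15.5 TPM in flu1-5 ex1 and 184 to 197 TPM in flu1-1 ex1.

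Members of the early singlet oxygen response were higher in flu1-5 ex1 in darkness. The list holds genes known to respond within minutes to hours of singlet oxygen release in flu. Of its 18 genes 17 were among the genes compared, and 13 of these passed the filter on low values. Of the 13 tested, 12 were called higher and 0 lower, beside 12.9% of all genes called higher. With each library left out in turn, 10 to 12 were higher and 0 lower. The median difference of the 13 was 1.00, where the median of all genes was 0.04. ZAT12 (AT5G59820), a zinc-finger factor of oxidative stress, had 15.2, 15.6 and 17.7 TPM in flu1-5 ex1, against 4.36, 3.14 and 2.81 TPM in flu1-1 ex1, a difference of 1.96 (SE 0.127). BAP1 (AT3G61190), a membrane protein that restrains cell death and a classical singlet oxygen marker, was low: 2.34, 3.44 and 3.61 TPM in flu1-5 ex1, against 1.17, 1.28 and 0.714 TPM in flu1-1 ex1 (difference 1.00, adjusted p = 0.00326). ERF5, an ethylene response factor, averaged 11 ± 1.35 TPM in flu1-5 ex1 and 2.6 ± 0.322 TPM in flu1-1 ex1. The glutaredoxin gene GRXS13 was the member not called, with 26.2 ± 2.37 TPM in flu1-5 ex1 and 27.9 ± 0.928 TPM in flu1-1 ex1 (adjusted p = 0.403). Below the filter, the protein kinase gene OXI1 had 1.1 to 1.49 TPM in flu1-5 ex1 and 0.256 to 0.438 TPM in flu1-1 ex1, and the marker BAP2 averaged 0.0826 TPM in flu1-5 ex1 and 0.0832 TPM in flu1-1 ex1. WRKY33, WRKY40, WRKY46, TCH3 and EXL2 stand on this list and on another.

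WRKY transcription factors, which bind the W-box and act in defence and stress, gave 12 higher and 0 lower of 17 tested, beside 12.9% of all genes higher and 5.65% lower, with a median of 0.61. WRKY33 (AT2G38470), which controls camalexin synthesis, had 70.9, 76.1 and 75 TPM in flu1-5 ex1, against 27.4, 27.4 and 28.2 TPM in flu1-1 ex1 (difference 1.39, adjusted p = 1.12e-07). WRKY70, a factor of salicylic acid signalling, averaged 23 ± 0.356 TPM in flu1-5 ex1 and 12.1 ± 0.528 TPM in flu1-1 ex1. WRKY15, WRKY17, WRKY18, WRKY28 and WRKY60 were not called, and the differences of WRKY15, WRKY17, WRKY18 and WRKY28 were 0.02, 0.07, -0.02 and 0.02. Of all 37 tested genes with a WRKY symbol in RefSeq, 13 were higher and 1 lower.

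Genes of calcium signalling and touch gave 10 higher (12.9% of all genes) and 0 lower (5.65%) of 11 tested, with a median of 0.66. CML24 (AT5G37770), a calmodulin-like protein also known as TCH2, had 84.1, 81.5 and 80.9 TPM in flu1-5 ex1, against 31.8, 33.1 and 32 TPM in flu1-1 ex1 (difference 1.32, adjusted p = 7.83e-08). TCH3 (AT2G41100), another calmodulin-like touch gene, averaged 791 ± 5.88 TPM in flu1-5 ex1 and 525 ± 3.96 TPM in flu1-1 ex1. RBOHD, the plasma membrane oxidase of the oxidative burst, averaged 18.8 ± 0.495 TPM in flu1-5 ex1 and 10.9 ± 0.989 TPM in flu1-1 ex1. RBOHF, its relative, was not called, with a difference of 0.10 (adjusted p = 0.44).

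Promoter sequences of 4 of these genes are shown because WRKY factors and calcium-regulated stress responses have known DNA motifs. The sequences are the 250 bases before the RefSeq gene start, read on the gene's strand from the TAIR10.1 assembly by gene identifier. The submitters' notes name TAIR10, so coordinates are not given. Capitals mark the W-boxes TTGACC and TTGACT and the motif CGCGTT, known from rapid stress response promoters, on either strand, and AACGCGTT holds 2 overlapping copies of CGCGTT, 1 on each strand.
SZF1, chromosome 3, plus strand: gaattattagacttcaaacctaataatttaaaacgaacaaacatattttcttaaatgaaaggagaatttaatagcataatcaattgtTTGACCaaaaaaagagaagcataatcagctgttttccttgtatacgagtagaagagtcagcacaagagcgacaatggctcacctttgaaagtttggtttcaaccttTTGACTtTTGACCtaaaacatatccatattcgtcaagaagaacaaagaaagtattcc
WRKY33, chromosome 2, plus strand: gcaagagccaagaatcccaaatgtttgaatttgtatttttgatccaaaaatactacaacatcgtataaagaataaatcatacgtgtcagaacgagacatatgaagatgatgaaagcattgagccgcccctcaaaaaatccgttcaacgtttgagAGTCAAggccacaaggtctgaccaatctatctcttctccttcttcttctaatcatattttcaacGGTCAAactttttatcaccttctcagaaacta
DIC2, chromosome 4, plus strand: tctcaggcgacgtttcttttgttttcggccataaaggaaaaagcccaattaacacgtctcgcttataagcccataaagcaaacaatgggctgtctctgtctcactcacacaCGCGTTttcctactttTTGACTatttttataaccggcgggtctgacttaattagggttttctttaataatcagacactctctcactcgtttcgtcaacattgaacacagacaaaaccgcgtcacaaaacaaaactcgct
CML24, chromosome 5, minus strand: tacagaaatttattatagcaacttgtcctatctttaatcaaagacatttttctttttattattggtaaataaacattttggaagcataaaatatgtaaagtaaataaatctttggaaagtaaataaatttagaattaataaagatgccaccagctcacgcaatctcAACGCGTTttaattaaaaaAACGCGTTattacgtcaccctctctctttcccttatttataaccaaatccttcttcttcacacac
These windows were chosen because they hold the motifs. Those of ZAT10, CAF1a, AT4G27280, WRKY40 and CYP72A11 hold neither, and of the 12 largest rises 7 hold a W-box and 2 hold CGCGTT.

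Of 159 promoters of genes at least 2-fold higher in flu1-5 ex1, 54.7% held TTGACC or TTGACT, against 27.7% of the 17337 promoters of all genes tested. CGCGTT was in 13.8% of them, against 2.81% of all. The heat shock element GAANNTTC was in 24.5%, against 9.18% of all, and the GCC-box GCCGCC in 4.4%, against 1.99%. The G-box CACGTG was in 9.43%, against 7.3% of all, the I-box GATAAG in 13.8%, against 12.5%, and the evening element AAAATATCT in 4.4%, against 2.56%. Both strands were searched, 8 motifs in all, and a window may hold several motifs or overlapping ones. Among 27 promoters of genes at least 2-fold lower, 25.9% held a W-box and 0 held CGCGTT. A match is a description of letters in the window and not a bound site.

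Mitochondrial stress and detoxification genes were higher as well. Genes of the mitochondrial dysfunction response gave 6 higher (12.9% of all genes) and 0 lower of 8 tested, with a median of 0.87, and 4 higher after quantile normalization. AOX1A (AT3G22370), the alternative oxidase that bypasses part of the respiratory chain, had 56.6, 58 and 57.1 TPM in flu1-5 ex1, against 25.5, 24.4 and 24.8 TPM in flu1-1 ex1. The lines did not overlap, and the difference was 1.17 (SE 0.037, adjusted p = 2.38e-07). UGT74E2, an auxin glucosyltransferase, averaged 13.8 ± 0.762 TPM in flu1-5 ex1 and 5.17 ± 0.382 TPM in flu1-1 ex1. ANAC017, a transcription factor that relays mitochondrial stress, had a difference of -0.03 (adjusted p = 0.667). Glutathione transferases and other detoxification genes gave 15 higher (12.9% of all genes) and 1 lower (5.65%) of 23 tested, with a median of 0.28. Besides CYP81D8 the largest rise in that list was GSTU4, at 12.1 ± 1.1 TPM in flu1-5 ex1 and 6.51 ± 0.671 TPM in flu1-1 ex1. GSTU20 was the 1 lower member, at 69.5 ± 2.02 TPM in flu1-5 ex1 and 77.9 ± 3.33 TPM in flu1-1 ex1, and lost its call without flu1-5 ex1 replicate 1 or 3 and without flu1-1 ex1 replicate 1 or 2.

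Antioxidant enzymes and chaperones did not follow as a group. Among catalases and ascorbate peroxidases 2 of 9 were higher and 2 lower, beside 12.9% and 5.65% of all genes. CAT2, the main leaf peroxisomal catalase, averaged 609.7 ± 9.14 TPM in flu1-5 ex1 and 507 ± 11.9 TPM in flu1-1 ex1, whereas CAT3 had 866 to 936 TPM in flu1-5 ex1 and 1078 to 1096 TPM in flu1-1 ex1. Heat shock proteins and factors gave 5 higher (12.9% of all genes) and 1 lower (5.65%) of 17 tested, with a median of 0.12, and 3 higher without flu1-5 ex1 replicate 3 or flu1-1 ex1 replicate 2. The 5 higher members were heat shock factors, among them HSFA4A at 8.62 ± 1 TPM in flu1-5 ex1 and 5.37 ± 0.437 TPM in flu1-1 ex1. The lower member was the chaperone gene HSP70 (AT3G12580), at 4.82 ± 0.314 TPM in flu1-5 ex1 and 6.5 ± 0.198 TPM in flu1-1 ex1 (adjusted p = 0.0129), a call lost without flu1-1 ex1 replicate 2. Unfolded protein response genes gave 1 higher and 2 lower of 11, beside 12.9% and 5.65% of all genes, and 0 lower without flu1-5 ex1 replicate 1, flu1-1 ex1 replicate 2 or flu1-1 ex1 replicate 3. The count was 1 lower without flu1-5 ex1 replicate 2 or 3. BZIP60, a transcription factor of this response, was the higher one with a difference of 0.55.

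**Figure D2:**
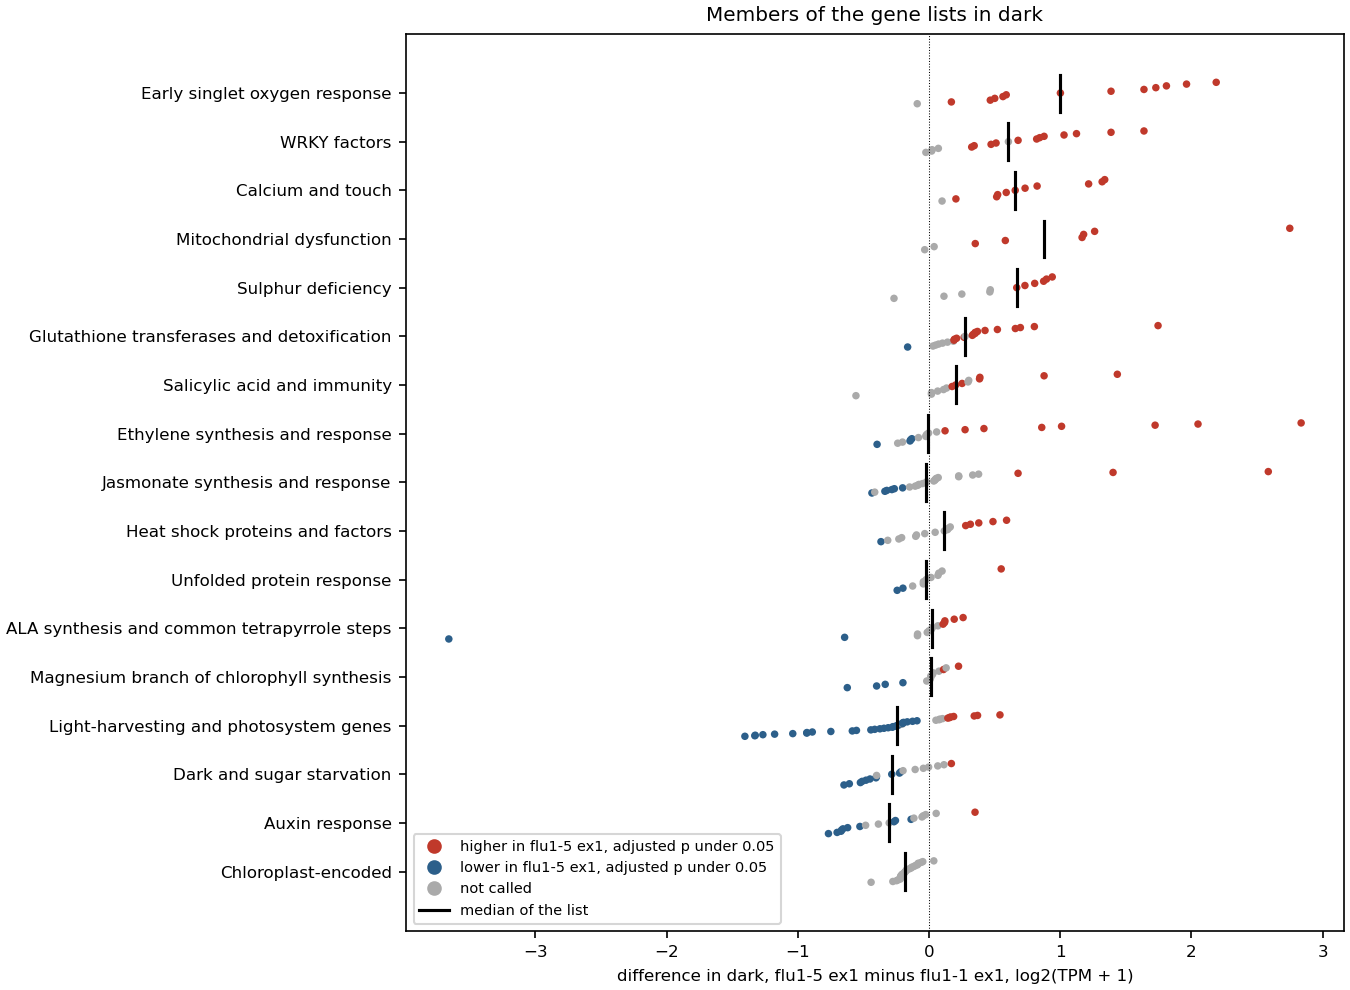
Differences in dark, flu1-5 ex1 minus flu1-1 ex1 on the log2(TPM + 1) scale, of the tested members of 17 gene lists, 1 point a gene, coloured by the call, with a black bar at each list's median. The early singlet oxygen list has its median at 1.00, and the lists of light-harvesting, starvation and auxin genes have medians of -0.24, -0.28 and -0.30.

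Hormone genes differed by pathway. In ethylene synthesis and response 8 of 20 genes were higher and 4 lower, beside 12.9% and 5.65% of all genes, with a median of -0.01. ACS6 (AT4G11280), which makes the ethylene precursor, had 23.7, 23.3 and 22.5 TPM in flu1-5 ex1, against 5.45, 4.43 and 4.66 TPM in flu1-1 ex1 (difference 2.05, adjusted p = 5.69e-07). ERF105 (AT5G51190) had 8.75, 2.35 and 10.2 TPM in flu1-5 ex1 and was listed at 0 in all 3 libraries of flu1-1 ex1. That gene was also listed at 0 in all 3 light libraries of flu1-1 ex1, against 118 to 119 TPM in flu1-5 ex1, and an exact 0 can be a failed estimate. ERF105 passed the filter only through flu1-5 ex1, so its place in the higher count is no support for it. Its dark call was lost with a pseudocount of 5 (limma adjusted p = 0.0509). The lower members included the transcription factors EIN3 and EIL1, at differences of -0.14 each. Only 1 member was lower without flu1-5 ex1 replicate 2 or 3 or without flu1-1 ex1 replicate 1 or 3, and EIL1 lost its call in each of these.

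Jasmonate genes gave 3 higher and 6 lower of 26 tested, beside 12.9% and 5.65% of all genes, with a median of -0.02. The lower count was 3 without flu1-1 ex1 replicate 1 or 2, and 4 without flu1-5 ex1 replicate 1 or 2. MYC2 (AT1G32640), the main transcription factor of the pathway, had 5.01, 7.02 and 3.58 TPM in flu1-5 ex1, against 0, 0.0182 and 0 TPM in flu1-1 ex1, where an exact 0 can again be a failed estimate. In light it had 38.5 to 42.4 TPM in flu1-5 ex1 and 18.7 to 21.9 TPM in flu1-1 ex1. LOX4, a lipoxygenase of jasmonate synthesis, averaged 3.89 ± 0.362 TPM in flu1-5 ex1 and 0.848 ± 0.153 TPM in flu1-1 ex1. MYC2 and LOX4 were under 1 TPM in flu1-1 ex1 and passed the filter through flu1-5 ex1, so their place in the higher count is no support for it. Among the 6 lower members were AOC4, a cyclase of jasmonate synthesis, and the storage protein gene VSP2, at -0.34 and -0.43, and VSP2 lost its call in those 4 leave-outs.

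Salicylic acid and immunity genes gave 7 higher (12.9% of all genes) and 0 lower of 15 tested, with a median of 0.20, but 4 higher after quantile normalization and 4 without flu1-5 ex1 replicate 1, flu1-5 ex1 replicate 2, flu1-1 ex1 replicate 1 or flu1-1 ex1 replicate 3. WRKY70 and WRKY54 stand on this list and on that of the WRKY factors. CBP60G, a transcription factor of salicylic acid synthesis, averaged 7.91 ± 0.195 TPM in flu1-5 ex1 and 2.29 ± 0.0556 TPM in flu1-1 ex1 (difference 1.44, adjusted p = 5.06e-06). ICS1, the synthesis enzyme, was not called, at 7.22 ± 0.325 TPM in flu1-5 ex1 and 7.12 ± 0.471 TPM in flu1-1 ex1. PR1, the late marker, averaged 0.027 TPM in flu1-5 ex1 and 0.0285 TPM in flu1-1 ex1. Of 20 abscisic acid genes 2 were higher and 1 lower, close to the 12.9% and 5.65% of all genes. CYP707A3 (AT5G45340), which breaks abscisic acid down, had 21.5, 16 and 19.6 TPM in flu1-5 ex1, against 3.38, 2.86 and 2.72 TPM in flu1-1 ex1 (difference 2.32), and RD26, a stress NAC factor, averaged 15.7 ± 1 TPM in flu1-5 ex1 and 22.7 ± 0.165 TPM in flu1-1 ex1.

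Genes of sulphate assimilation and sulphur deficiency were higher in flu1-5 ex1 in the dark, 6 of 11 tested (12.9% of all genes) and 0 lower, with a median of 0.67. APR3 (AT4G21990), which reduces activated sulphate, had 102, 99.7 and 101 TPM in flu1-5 ex1, against 50.6, 51.4 and 54.2 TPM in flu1-1 ex1 (difference 0.94, adjusted p = 6.37e-07). SHM7, a serine hydroxymethyltransferase that responds to sulphur status, had 40.9, 39.4 and 38.8 TPM in flu1-5 ex1, against 21.5, 20.1 and 21 TPM in flu1-1 ex1. The paralogs APR1 and APR2 averaged 19 ± 0.598 and 82.5 ± 3.65 TPM in flu1-5 ex1, and 10.5 ± 0.467 and 49.2 ± 1.05 TPM in flu1-1 ex1. Among the low LSU genes, LSU3 was called (0.87) and LSU1 and LSU2 were not (adjusted p = 0.0577 and 0.0633).

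Nuclear genes of the light-harvesting antenna were lower in flu1-5 ex1. Of 41 light-harvesting, photosystem, Rubisco and GLK genes tested, 29 were lower, beside 5.65% of all genes, and 7 higher, beside 12.9%. After quantile normalization 24 were lower and 9 higher, beside 1435 lower and 1594 higher of all 17471 genes tested. All 9 genes of LHCB1, LHCB2 and LHCB3, which form the major antenna of photosystem II, were lower, with a median of -1.18. LHCB1.1 (AT1G29920) had 782, 811 and 832 TPM in flu1-5 ex1, against 2082, 2203 and 2129 TPM in flu1-1 ex1 (difference -1.40, SE 0.031, adjusted p = 4.67e-08). LHCB2.2 (AT2G05070) had 149, 149 and 144 TPM in flu1-5 ex1, against 366, 384 and 361 TPM in flu1-1 ex1. In each of these genes the highest flu1-5 ex1 library was far below the lowest flu1-1 ex1 library. LHCB1.3, the most abundant, differed least of the 9, at 13534 ± 163 TPM in flu1-5 ex1 and 18395 ± 264 TPM in flu1-1 ex1 (difference -0.44). Near-identical LHCB1 copies share sequence, so the estimate may be split between them. The sum over the 9 genes was 22135, 22359 and 22360 TPM in flu1-5 ex1, against 35990, 37513 and 36666 TPM in flu1-1 ex1.

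The photosystem I antenna followed, and the cores less so. All 4 tested LHCA genes were lower, beside 5.65% of all genes, and 3 were lower after quantile normalization. Their median was -0.65, with a sum of 6772 to 7192 TPM in flu1-5 ex1, against 10115 to 10668 TPM in flu1-1 ex1. LHCA4 averaged 1313 ± 46.3 TPM in flu1-5 ex1 and 2433 ± 85.8 TPM in flu1-1 ex1. Of the minor antenna genes LHCB4 to LHCB6, 4 of 5 were lower, beside 5.65% of all genes, and 3 were lower after quantile normalization. LHCB4.3 was higher, at 58.3 ± 3.25 TPM in flu1-5 ex1 and 44.9 ± 2.81 TPM in flu1-1 ex1. Photosystem I subunits gave 8 lower of 9, beside 5.65% of all genes, with a median of -0.20, and 7 lower after quantile normalization. Photosystem II subunits gave 3 lower and 0 higher of 5 with a median of -0.09, but 1 lower and 2 higher after quantile normalization, so that no direction can be given for them.

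Rubisco small subunit genes went the other way. All 4 were higher in flu1-5 ex1, beside 12.9% of all genes, and 3 were higher after quantile normalization. Their sum was 43314 to 44743 TPM in flu1-5 ex1, against 36863.6 to 39294 TPM in flu1-1 ex1. RBCS1B averaged 4678 ± 179 TPM in flu1-5 ex1 and 3213 ± 106 TPM in flu1-1 ex1 (difference 0.54). GLK1 and GLK2, transcription factors that activate antenna genes, were slightly higher, at 30.2 ± 0.941 and 60.1 ± 1.2 TPM in flu1-5 ex1, and 26.9 ± 0.943 and 52.7 ± 2.24 TPM in flu1-1 ex1 (adjusted p = 0.0428 and 0.0128). The call of GLK1 was lost in most alternatives. In bulk seedlings fewer cells of a type and less RNA per cell cannot be told apart. The mesophyll marker gene CA1, carbonic anhydrase, averaged 1858 ± 47.4 TPM in flu1-5 ex1 and 1608 ± 91 TPM in flu1-1 ex1. Its call was lost in the fit without trend or robust variances (limma adjusted p = 0.0522). The part of cell numbers in these differences was not tested.

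**Figure D3:**
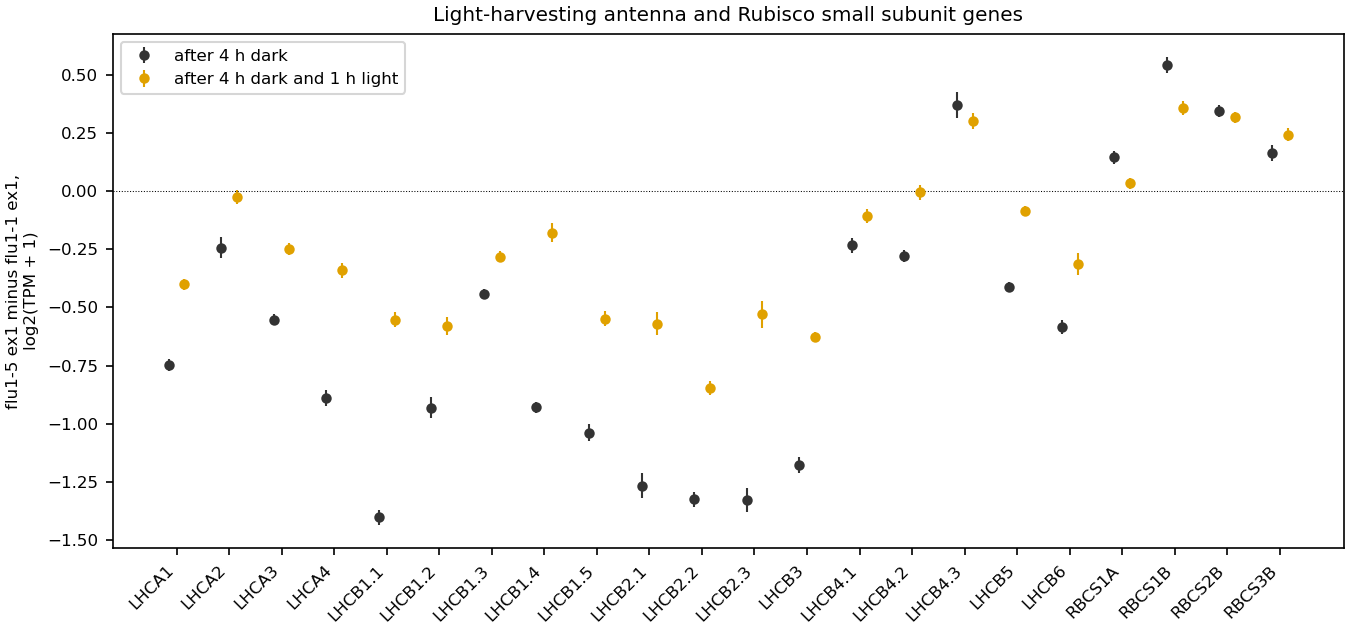
Difference flu1-5 ex1 minus flu1-1 ex1, on the log2(TPM + 1) scale with the limma SE, for 18 antenna genes and 4 Rubisco small subunit genes, in dark (dark grey) and after 1 h of light (yellow). LHCB1 to LHCB3 genes have a median of -1.18 in dark and -0.55 in light, and the Rubisco genes lie above 0 in both.

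Genes of tetrapyrrole synthesis, the pathway that FLU controls, differed in both directions. Of 14 genes of the common steps 5 were higher and 2 lower (FLU and HEME1), and of 14 genes of the chlorophyll branch 2 were higher and 4 lower, so that 7 and 6 of 14 were called, beside 18.5% of all genes. The medians were 0.02 and 0.01. The common steps had 3 higher without flu1-5 ex1 replicate 1 or 3 and without flu1-1 ex1 replicate 2 or 3. After quantile normalization they had 5 higher and 4 lower. HEMA1, whose product FLU binds, had 135, 135 and 133 TPM in flu1-5 ex1 and 142, 144 and 142 TPM in flu1-1 ex1, a difference of -0.09 that missed the threshold (adjusted p = 0.0516). HEMA1 was called lower after quantile normalization (-0.11, adjusted p = 0.0332) and with a filter at a mean of 5 TPM (-0.09, adjusted p = 0.0458). HEME1, uroporphyrinogen decarboxylase, was lower, at 59.1 ± 1.9 TPM in flu1-5 ex1 and 92.9 ± 5.75 TPM in flu1-1 ex1. In the chlorophyll branch, CHLH, a magnesium chelatase subunit, averaged 225 ± 5.57 TPM in flu1-5 ex1 and 258 ± 2.87 TPM in flu1-1 ex1. PORB, which reduces protochlorophyllide in light, averaged 308 ± 17.5 TPM in flu1-5 ex1 and 405 ± 14.1 TPM in flu1-1 ex1 (difference -0.40, adjusted p = 0.000358). Its relatives differed: PORC was not called (adjusted p = 0.896), and PORA stayed under 1 TPM in all dark libraries. CAO, which makes chlorophyll b, averaged 18.4 ± 0.549 TPM in flu1-5 ex1 and 28.9 ± 2.66 TPM in flu1-1 ex1. GUN4, an activator of magnesium chelatase, was not called (adjusted p = 0.923).

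In the heme branch FC1 (AT5G26030), the ferrochelatase tied to stress and non-photosynthetic heme supply, had 41.3, 41.6 and 43.2 TPM in flu1-5 ex1, against 25.3, 24.9 and 25.9 TPM in flu1-1 ex1 (difference 0.71, adjusted p = 5.79e-06). UPM1, which draws the pathway towards siroheme, averaged 232 ± 9.25 TPM in flu1-5 ex1 and 184 ± 7.17 TPM in flu1-1 ex1. These were the 2 called members of 5 tested in that branch, both higher, beside 12.9% of all genes called higher. FER1 (AT5G01600), the iron store protein ferritin, was lower, with 302, 300.2 and 308 TPM in flu1-5 ex1, against 505, 514 and 503 TPM in flu1-1 ex1 (difference -0.74, adjusted p = 3.11e-07). Of 10 iron genes tested 4 were higher and 2 lower, beside 12.9% and 5.65% of all genes.

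Genes that rise in darkness and sugar starvation were lower in flu1-5 ex1, 11 of 19 tested (5.65% of all genes) and 1 higher (12.9%), with a median of -0.28. SEN1 (AT4G35770), a dark-inducible senescence gene, had 964, 959 and 959 TPM in flu1-5 ex1, against 1357, 1336 and 1412 TPM in flu1-1 ex1 (difference -0.51, adjusted p = 3.4e-06). ASN1 (AT3G47340), a dark-inducible asparagine synthetase, had 275, 282 and 262 TPM in flu1-5 ex1, against 422, 429.6 and 432 TPM in flu1-1 ex1. ERD5, a proline dehydrogenase, averaged 445 ± 10.2 TPM in flu1-5 ex1 and 678 ± 15.8 TPM in flu1-1 ex1. Auxin response genes gave 10 lower (5.65% of all genes) and 1 higher (12.9%) of 19, with a median of -0.30, and 6 lower without flu1-5 ex1 replicate 1. Among them SAUR63, of a family of growth-promoting auxin genes, averaged 6.2 ± 1.68 TPM in flu1-5 ex1 and 11.1 ± 1.09 TPM in flu1-1 ex1.

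Light signalling factors differed one by one. Of 21 genes of the PIF and shade list 3 were higher, a share close to the 12.9% of all genes, and 4 lower, beside 5.65%. PIF4, a growth-promoting factor of darkness and warmth, had 5.7, 5.08 and 4.81 TPM in flu1-5 ex1, against 11.2, 11.3 and 13.1 TPM in flu1-1 ex1 (difference -1.05, adjusted p = 6.32e-05). HYH and HY5, factors of light-grown development, averaged 15.7 ± 1.46 and 13.9 ± 0.636 TPM in flu1-5 ex1, and 6.27 ± 0.441 and 9.76 ± 1.15 TPM in flu1-1 ex1. Of 18 clock genes 3 were higher (12.9% of all genes) and 5 lower (5.65%), with RVE2 at 0.73 and PRR7 at -0.70.

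Chloroplast-encoded genes gave no call in the fit without a replicate block. Of 28 tested, limma called 0, and 0 had an unadjusted p under 0.05, with a median of -0.18. Without flu1-1 ex1 replicate 3, which carried the highest chloroplast share, limma again called 0 and 2 had an unadjusted p under 0.05. With the replicate block 1 was called lower and 5 had an unadjusted p under 0.05.

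A few genes without a known part in these pathways were nearly absent from flu1-5 ex1. AT3G01345, an uncharacterized protein gene, had 1.01, 0.617 and 0.77 TPM in flu1-5 ex1, against 153, 155 and 150.5 TPM in flu1-1 ex1 (difference -6.42, adjusted p = 1.32e-09). MRD1 (AT1G53480) had 0, 1.04 and 0.664 TPM in flu1-5 ex1, against 60.4, 58.9 and 58.7 TPM in flu1-1 ex1. Their gaps, larger than that of FLU, were there in the light libraries too, with 0.555 to 1.07 TPM of AT3G01345 in flu1-5 ex1 and 255 to 268 TPM in flu1-1 ex1. AT5G26890, AT1G75945, JAL33, a jacalin-related lectin, and AT3G18535 completed the 12 largest falls at or above the median level that lie outside the antenna, at -2.71, -1.91, -1.66 and -1.64. Near FLU in gene order, 23 of the 101 tested genes centred on it were called, beside 18.5% of all genes. Among them was a run of cytochrome genes 35 to 39 places away, CYP72A8, CYP72A11, CYP72A13 and CYP72A14, which were higher, and CYP72A15, which was lower, at -0.17. These neighbours share sequence, and the estimate may be split between them.

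The light libraries gave a comparison of the same lines in samples that the dark comparison did not use. After 1 h of light 6624 of 17845 genes (37.1%) were called, 3061 higher (17.2%) and 3563 lower (20%). Of 151 genes at least 2-fold higher in dark and tested in both, 148 had the same sign in light and 143 were called so, with medians of 1.3 in dark and 1.77 in light. Of 22 at least 2-fold lower and tested in both, 22 had the same sign and 20 were called, with medians of -1.37 in dark and -1.17 in light. Taking all calls, of 2223 called higher in dark, 1059 were called higher and 281 lower in light, and of 957 called lower, 348 were called lower and 133 higher.

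The size of the line difference was compared between dark and light by an interaction term over all 12 libraries, which called 5273 of 17830 genes (29.6%). In the antenna the gap was smaller in light: LHCB1.1 differed by -0.55 there and by -1.40 in dark (interaction 0.85, adjusted p = 3.15e-08). Of the genes called higher in dark and tested in both, 405 had a called interaction with a larger difference in light. For 878 it was smaller or reversed, and at 2-fold these counts were 69 and 36. These genes were chosen by dark values that also enter the interaction. That choice favours a smaller difference in light, so the counts do not measure how often the difference shrank. WRKY40 was among those with a larger difference in light, at 3.51 there and 1.64 in dark (interaction 1.87, adjusted p = 1.44e-08). DIC2 was among those for which the interaction was not called, with 2.55 in light and 2.75 in dark (adjusted p = 0.0987). Sulphur genes had the opposite sign in light. SHM7 had 33.3, 33.2 and 31.9 TPM in light in flu1-5 ex1, against 95.7, 92.9 and 97.7 TPM in flu1-1 ex1, a difference of -1.51 in light and 0.90 in dark (interaction -2.41, adjusted p = 1.5e-11). Of 10 sulphur genes tested in light 9 were lower and 0 higher, beside 20% and 17.2% of all genes in light, with a median of -1.35. Of the starvation genes 12 of 18 were higher and 4 lower in light, beside 17.2% and 20% of all genes, with a median of 0.48. ERD5 differed by 0.45 in light and -0.61 in dark (interaction 1.06, adjusted p = 6.8e-09).

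**Figure D4:**
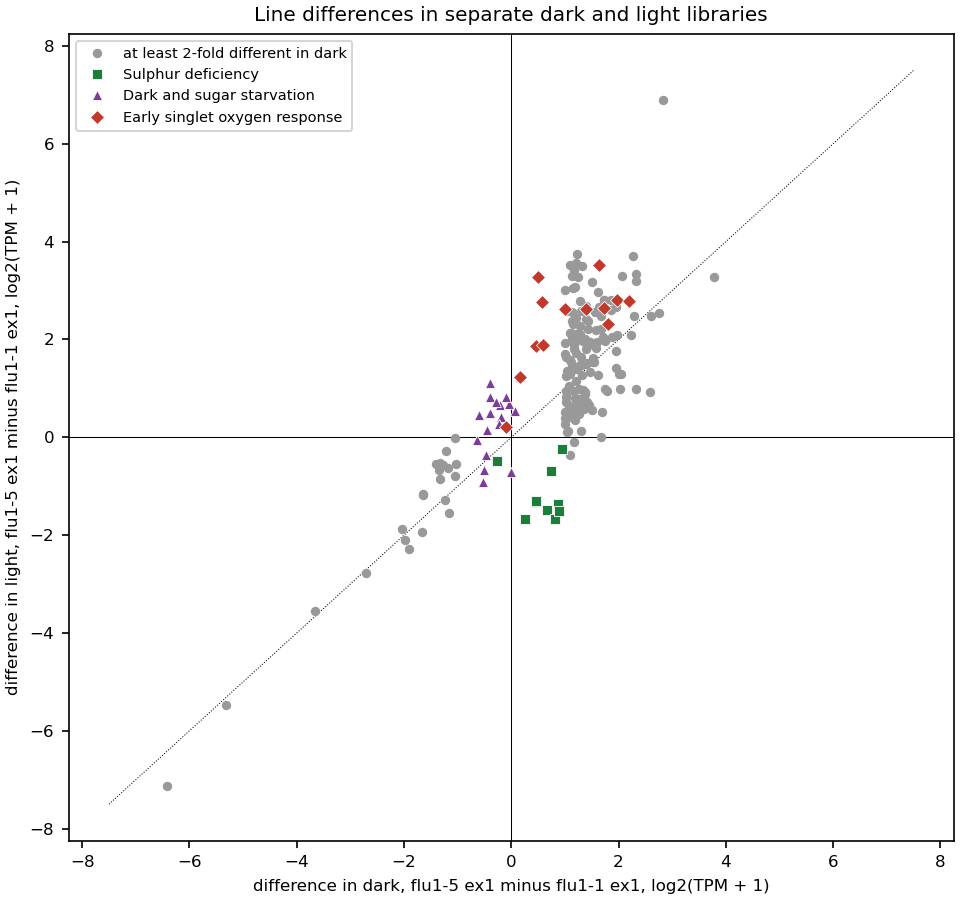
Line difference in dark (x axis) against that in light (y axis), both flu1-5 ex1 minus flu1-1 ex1 on the log2(TPM + 1) scale and from separate libraries, for genes at least 2-fold different in dark (grey) and for tested members of 3 lists, with the dotted line at equality. Of the grey genes higher in dark 148 of 151 lie above 0 in light, while SHM7 of the sulphur list lies at 0.90 in dark and -1.51 in light.

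The labelled tissue was checked with marker genes. Shoot markers RBCS1A and CA1, the root gene PYK10, at 853 to 925 TPM in flu1-5 ex1 and 846 to 859 TPM in flu1-1 ex1, and the phloem gene SUC2 were present. Summed over 4 root hair markers the level was 0.773 to 1.4 TPM in flu1-5 ex1 and 1.7 to 2.29 TPM in flu1-1 ex1, and none reached the filter. Pollen markers summed to at most 0.232 TPM in flu1-5 ex1 and 0.0816 TPM in flu1-1 ex1. No endodermis, phloem or meristem marker was called by limma. Of 4 guard cell markers 2 were higher by 0.20 and 0.21, beside 12.9% of all genes higher, a call lost for both after quantile normalization. Of 2 seed storage markers tested 1 was lower, beside 5.65% of all genes. This was CRA1, at 5.57 ± 0.847 TPM in flu1-5 ex1 and 8.58 ± 0.391 TPM in flu1-1 ex1. The part of these differences in the results was not tested.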

How the data were processed

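RNA-seq of whole Arabidopsis thaliana seedlings was deposited by the authors as TPM values, in 1 table for each line, with 1 transcript for each gene. The submitters' processing notes name kallisto 0.46.2, sleuth 0.30.0 and the TAIR10 build, with no role or order given. Read numbers cannot be had from TPM, so depth and counting error are unknown. Groups were taken from titles and descriptions.

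The tables were joined on gene identifier, keeping the 26684 genes with the same transcript in both. limma 3.58.1 (R 4.3.3) was run on log2(TPM + 1) for genes averaging 1 TPM or more in the fit, with trended, robust variances, two-sided, and Benjamini-Hochberg adjustment over all genes tested. Main fits used the 6 libraries of a light state, or all 12 for the interaction. The script was tested on simulated data. RefSeq TAIR10.1 entries, found for 26474 genes by locus tag, gave names and promoters.

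Genes named are the 12 largest rises and 12 largest falls among called genes at or above the median level, up to 2 in each direction from each of 41 lists, and a fixed set with FLU. Other genes named were chosen after their values were seen. The members and lists were chosen with earlier results of these data known, so they give no independent support, and no list was tested for enrichment. Alternatives were quantile normalization, other pseudocounts and filters, a replicate block, a fit without trend or robust variances, a fit of all 12 libraries, stricter thresholds and leaving out each library.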

Additional observations from a re-analysis of the deposited data

Results flagged for a closer look

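For the genes below the line difference, flu1-5 ex1 minus flu1-1 ex1, differed between light and dark by limma's interaction term, adjusted over all genes, and values are light minus dark on the log2(TPM + 1) scale. Of 124 named genes called in dark and fitted over 12 libraries, 90 had a called interaction, beside 29.6% of all genes. The dark values that chose these genes also enter the interaction, so a high count is partly built in. Of all 2223 genes called higher in dark and tested in both, 405 had a called larger and 878 a called smaller or reversed difference. For the 957 called lower these counts were 92 and 384. Of the 124 named genes, 15 were called in opposite directions in dark and light. No explanation was tested.

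Among the largest rises in dark the difference was larger in light for ZAT10 by 0.59, AT1G07135 by 1.24, SZF1 by 0.94, CAF1a by 0.50, XTH18 by 0.21, AT4G27280 by 1.09, WRKY40 by 1.87, CYP72A11 by 0.24 and CZF1 by 0.62, while CYP81D8 had -0.76. BAP1 and ZAT12 had 1.61 and 0.84. Among the falls AT3G01345 had -0.71 and AT3G18535 had 0.47. The antenna genes LHCB1.1, LHCB2.3, LHCB2.2, LHCB2.1 and LHCB3 had 0.85, 0.80, 0.48, 0.70 and 0.55, a smaller gap in light. Among the fixed genes EX1 had 0.48, GLK1 -0.35, GLK2 -0.21 and SEN1 -0.15. GLK1 was called higher in dark and lower in light, with a dark call that was lost in most alternatives.

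The other named list members here were called in opposite directions in dark and light. Lower in dark and higher in light were ferritin FER1 at 1.02, proline dehydrogenase ERD5 at 1.06, chaperone HSP70 at 0.78, seed storage gene CRA1 at 1.42, HPD at 0.71, COR27 at 1.36, the phosphate gene SPX1 at 0.81 and superoxide dismutase FSD1 at 0.19. Higher in dark and lower in light were APR3 and SHM7 of sulphur metabolism, at -1.19 and -2.41, GUN1 at -0.29, PAL1 at -0.33, AT1G47395 at -0.81 and TSO2 at -0.98. The dark call of FSD1 was lost in 9 of 14 alternatives, that of PAL1 in 8, that of TSO2 in 7 and that of AT1G47395 in 4, stricter thresholds aside.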

How the results depend on the processing

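In the dark the line difference in FLU lay between -3.35 and -3.74 over all alternatives run and was called in each. An adjusted p under 0.01 left 1179 genes higher and 464 lower, and a change of at least 2-fold left 161 and 27. Leaving out 1 library gave 1623 to 1779 genes higher and 636 to 776 lower, the fewest lower without flu1-1 ex1 replicate 1. Fewer samples make fewer calls. In light that range was 2668 to 2830 higher and 2945 to 3203 lower, and for the interaction 1818 to 1910 higher and 2863 to 3111 lower. Same-numbered replicates correlated at -0.036 to 0.023 in their deviations from the group means in dark, and differently numbered ones at -0.039 to 0.058. These values cannot exclude a pairing by number, and replicate 3 had the lowest value on component 2 in both lines. With the replicate block 1850 genes were higher and 826 lower in dark. Leaving the stricter thresholds aside, 95 of 124 named genes called in dark were called in each of the 14 alternatives that gave them a value, 29 lost the call in at least 1 and 0 reversed. EX1 and GLK1 each lost it in 10 of the 14, and EX1 had 0.14 (adjusted p = 0.0971) after quantile normalization. Depth is unknown, so counting error at low TPM could not be set apart from replicate spread.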
